A study of Mus musculus with 15 samples.

Results

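The glutathione and antioxidant genes are a set of 38 genes out of the 53801 in the count table. They were chosen by name, with earlier results of these data known. The set holds NRF2 regulators and marker enzymes, the glutathione, thioredoxin and peroxiredoxin systems, the superoxide dismutases with catalase, and the iron-handling genes that go with them. RNA-seq was performed on adult neural stem cells (aNSCs) that were isolated from the subventricular zone of 2-month-old C57BL6/J-129sv mice and grown in suspension. All mice carried the Rosa26-CreERT2 transgene, which is expressed broadly and whose recombinase becomes active with 4-hydroxytamoxifen (4-OHT), and at least 1 floxed allele of Trrap, an adaptor of several histone acetyltransferase complexes. The 15 libraries formed 3 groups of 5 cultures. Untreated cultures of Trrap Fl/+; Rosa26-CreERT2 tg mice and 4-OHT cultures of the same genotype both came from mice 19, 24, 26, 35 and 36. Cultures of Trrap Fl/Fl; Rosa26-CreERT2 tg mice given 4-OHT came from mice 27, 28, 29, 37 and 39. The labels and the study's methods give different doses and lengths of exposure to 4-OHT, so neither is stated here. Lists of 5 values below follow these orders of mice.

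Fl/Fl 4-OHT against Fl/+ 4-OHT cultures addressed the loss of Trrap, and both groups had active Cre. The Fl/+ controls could lose their single floxed allele as well. Fl/+ 4-OHT against untreated Fl/+ cultures compared the same mice, but the drug, the active Cre and the loss of 1 Trrap allele cannot be told apart in it. Untreated Fl/Fl cultures were not analysed here. Levels are read counts scaled to a common library total by TMM (CPM), and a gene was called when its adjusted p in edgeR's quasi-likelihood test was under 0.05. The medium contained the B-27 supplement, which itself holds antioxidants, so these are levels in cells with an outside supply of them.

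Libraries held 25720034 to 32187097 assigned reads. The targeted gene, Trrap, was at 104 ± 24.2 CPM in Fl/Fl 4-OHT, 164 ± 26.5 in Fl/+ 4-OHT and 190.2 ± 14.3 in Fl/+ cultures without treatment (mean ± SD over 5), a log2 fold change of -0.64 (adjusted p = 0.0115, SE 0.160) between the groups given 4-OHT. The Fl/Fl culture of mouse 29, with 142 CPM of Trrap, lay inside the range of the Fl/+ 4-OHT cultures. In 3 libraries sex-linked genes went against the label, Xist and the Y-linked genes for mouse 39 and Xist alone for mouse 36. The Fl/Fl culture of mouse 39, labelled female, had 9 counts of Xist and 2160 of the Y-linked Kdm5d. The cultures of mouse 36, labelled male, had 160 Xist counts when untreated and 2117 after 4-OHT, beside 1711 and 1586 of Kdm5d. The count of called members in each comparison is therefore given with and without these 3 libraries, as are most counts of smaller lists. The neural stem cell markers summed to 5958 to 10509 CPM per library, and 7 of 8 microglia and macrophage markers stayed at or under 3 counts in every library.

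Antioxidant genes are a standing defence of dividing cells against peroxides and superoxide made by respiration. The transcription factor NRF2, encoded by Nfe2l2, is kept low by KEAP1, which presents it for degradation. When KEAP1 is modified by electrophiles, NRF2 builds up, pairs with small MAF proteins and binds the antioxidant response element. Its targets include the enzymes that make glutathione, a small thiol that peroxidases and transferases consume, and the thioredoxin system, which keeps peroxiredoxins reduced. Neural stem cells are known to be sensitive to their redox state.

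Promoter windows from 250 bases before to 50 bases after the annotated start (RefSeq, GRCm38.p6) were found for 31 of the 38 members, 41 windows in all. Gclc, Gsr, Gsta4, Gstt2, Sod3, Hmox1 and Prdx6 had no entry. The core letters of the antioxidant response element, TGACNNNGC on either strand, were in 9 of these windows (22%), against 12.4% of all 32851 windows and 14.2% of the 14148 windows of genes tested between Fl/Fl and Fl/+ 4-OHT cultures. Each of the 9 belonged to a different member. They are shown because NRF2, which binds this element, is encoded by a member of the set. Each is given with 10 bases on each side, in the direction in which the motif reads and with the match in capitals (GRCm38.p6).
Nfe2l2, chr2:75704885-75704913, minus strand: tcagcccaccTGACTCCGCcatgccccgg
Srxn1, chr2:152105542-152105570, minus strand: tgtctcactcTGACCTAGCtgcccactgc
Gclm, chr3:122245413-122245441, minus strand: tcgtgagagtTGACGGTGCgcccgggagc
Gstm5, chr3:107895802-107895830, plus strand: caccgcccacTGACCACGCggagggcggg
Gstm7, chr3:107931725-107931753, minus strand: tctgaagaccTGACAAAGCgaagccaatc
Mgst1, chr6:138140461-138140489, minus strand: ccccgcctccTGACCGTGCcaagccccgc
Txnrd1, chr10:82859104-82859132, minus strand: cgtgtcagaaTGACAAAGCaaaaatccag
Prdx1, chr4:116685456-116685484, minus strand: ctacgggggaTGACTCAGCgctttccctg
Sod1, chr16:90220696-90220724, minus strand: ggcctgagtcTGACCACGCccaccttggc
Gstm7 and Txnrd1 held the same 9 letters, as did Gstm5 and Sod1. The GC box GGGCGG, the letters that the factor SP1 binds, is shown because the study dealt with SP1. It was in 31 of the 41 windows (75.6%), in 28 members, against 35.7% of all windows and 61.8% of those of tested genes. Below are the 250 bases before the start of Nqo1, the called member with the largest rise among those with a promoter entry, and before 1 of the 3 annotated starts of Txnrd1, which fell and whose window held both motifs. Capitals mark matches to either motif, read as the reverse complement where the match is on the other strand.
Nqo1, chr8:107403206-107403455, minus strand: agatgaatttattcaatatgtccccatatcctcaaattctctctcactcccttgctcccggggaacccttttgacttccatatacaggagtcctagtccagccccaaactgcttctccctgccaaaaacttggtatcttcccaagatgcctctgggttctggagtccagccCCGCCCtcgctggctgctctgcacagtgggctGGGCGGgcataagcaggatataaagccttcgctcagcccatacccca
Txnrd1, chr10:82858956-82859205, plus strand: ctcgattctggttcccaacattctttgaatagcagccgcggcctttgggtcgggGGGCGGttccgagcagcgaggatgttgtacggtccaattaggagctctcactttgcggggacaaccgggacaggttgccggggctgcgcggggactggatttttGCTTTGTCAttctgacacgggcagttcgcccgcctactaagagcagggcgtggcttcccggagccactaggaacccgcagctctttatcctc
A match of letters is a description, and binding was not measured here.

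Loss of Trrap was accompanied by changes in both directions. Of the 3 NRF2 marker enzymes, Hmox1 and Nqo1 rose 2.53-fold and 2.39-fold in Fl/Fl 4-OHT cultures, and Srxn1 was not called. Among other NRF2 targets, Txnrd1, which keeps thioredoxin reduced, fell 1.36-fold. Gclc and Gclm, which make glutathione, were not called (log2 fold changes 0.10 and 0.06). Prdx2, which removes peroxides, fell 1.43-fold. The 3 iron genes split, with Fth1 higher and Ftl1 and Tfrc lower. Of the 37 members tested, 10 were higher and 6 lower, 16 in all. Gstt2 was the member below the count filter, with 3 to 20 counts per library. Over all 15036 genes tested 31.7% were called, 16.8% higher and 15% lower, against 43.2% of the tested members. The median log2 fold change of the members was 0.06 and that of all genes 0.02. In 5 of the 37 the groups did not overlap, against 22.6% of all genes. Without the 3 libraries of doubtful sex 9 members were called, 4 higher and 5 lower, which is 24.3% against 23.2% of all genes in that setting. The members that lost their call were Gss, Gpx8, Gsta4, Mgst3, Txnrd2, Sod3 and Fth1, each with the same sign as before. Leaving out the Fl/Fl culture of mouse 27, or the Fl/+ 4-OHT culture of mouse 35 or 36, left 10 members called.

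Exposure of Fl/+ cultures to 4-OHT went mostly with lower levels. Mgst1, Gpx8, Gsta4, Sod3 and Txn1 each fell by 0.90 to 0.98 on the log2 scale. Nfe2l2 was the member called higher in the main fit, which leaves the pairing by mouse aside. Of the 37 members tested 11 were called, 1 higher and 10 lower, 29.7% against 13.8% of all 14821 genes (7.34% higher and 6.45% lower). The median log2 fold change was -0.24 over the members and -0.01 over all genes. Groups did not overlap for 8 members, against 12% of all genes. With the mouse as a replicate block, since both groups came from the same 5 mice, 18 members were called, 4 higher and 14 lower, and 25.7% of all genes. The members added were Gpx1, Gpx3 and Srxn1 among the higher and Ftl1, Hmox1, Prdx1 and Prdx2 among the lower. Without both cultures of mouse 36, 7 members were called, 18.9% against 10.8% of all genes, and Gstt1, Txn1, Txnrd2 and Sod3 lost their call. Leaving out the untreated culture of mouse 35, or the 4-OHT culture of mouse 19, 35 or 36, left 5 members called, and leaving out the untreated culture of mouse 19 or 26 left 6 or 7.

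**Figure D1:**
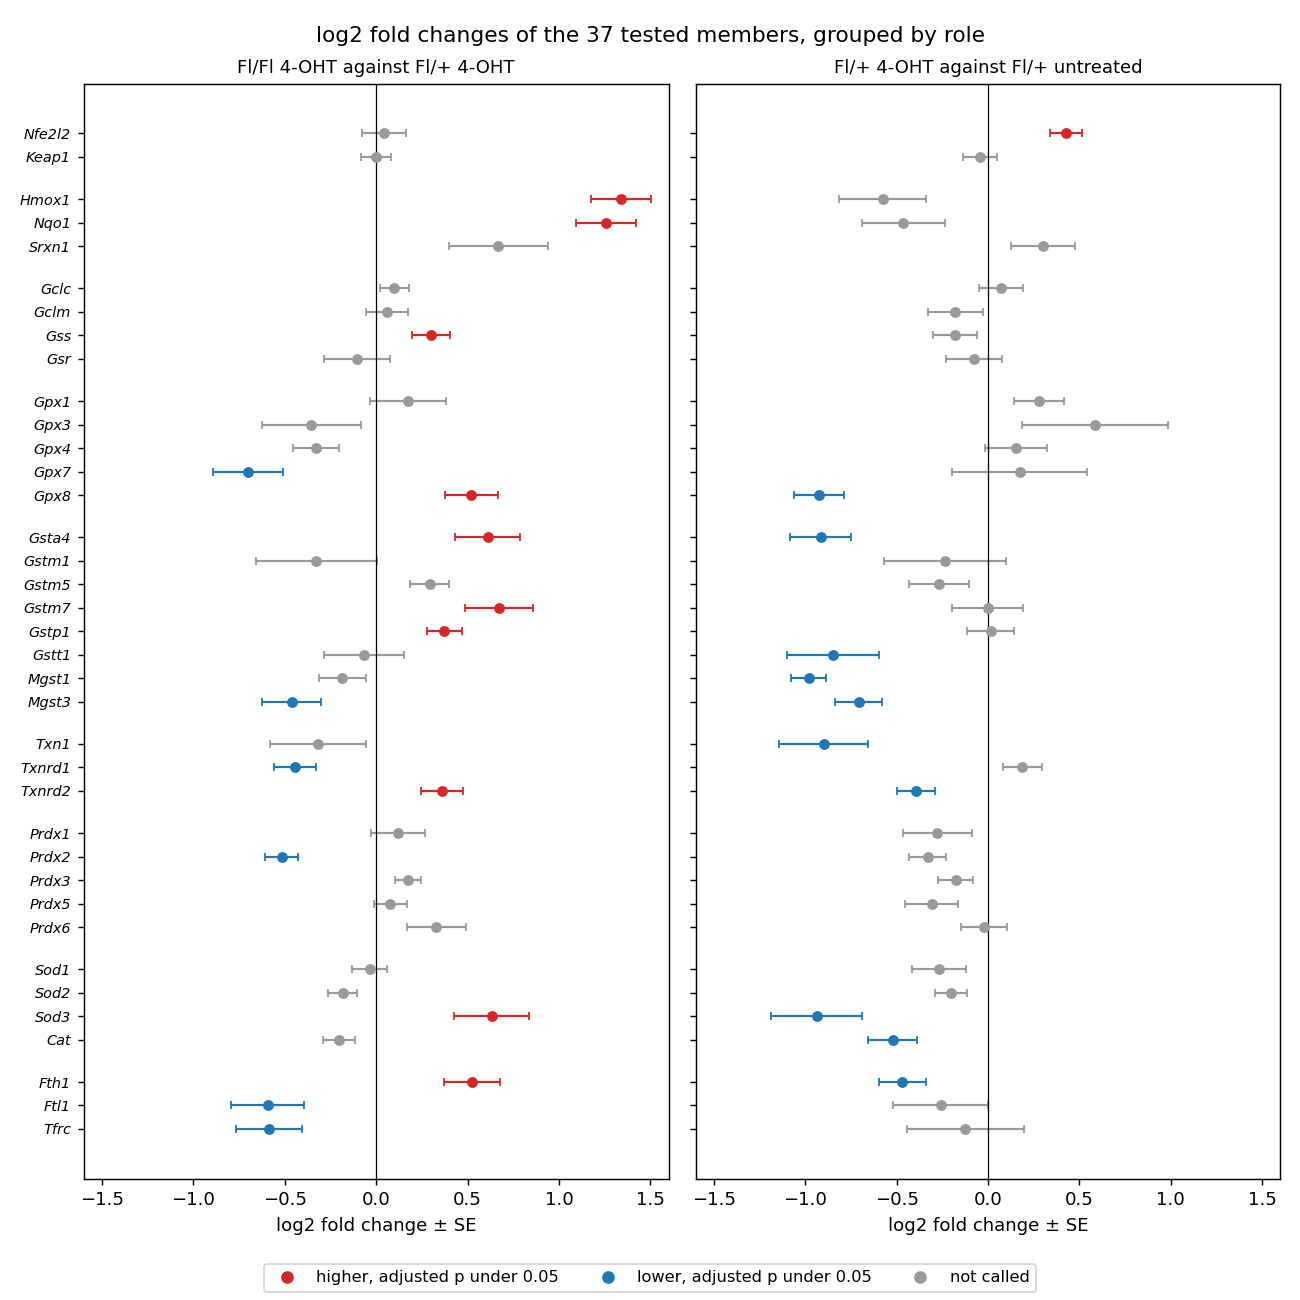
log2 fold change ± SE (horizontal axis) of the 37 tested members, grouped by role, for Fl/Fl 4-OHT against Fl/+ 4-OHT cultures (left) and for Fl/+ 4-OHT against untreated Fl/+ cultures (right). Red points are called higher, blue points called lower and grey points not called. On the left 10 points are red and 6 blue, and on the right 10 of the 11 coloured points are blue. The fit on the right is without the mouse as a block.

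Some markers of other cell types were called after 4-OHT as well, where 13.8% of all genes were called (25.7% with the mouse as a block). Called higher were 6 of 10 oligodendrocyte markers (5 without mouse 36), while the list's summed level was 3465 to 4514 CPM in untreated and 3373 to 4662 CPM in 4-OHT Fl/+ cultures. Olig1, with means of 2444 and 1893 CPM, and Olig2, with 831 and 838 CPM, held most of that sum, whereas the means of Mbp went from 16.3 to 118, of Mag from 1.01 to 11.2 and of Sox10 from 25.1 to 96.5 CPM. For the 8 astrocyte markers, 1 rose and 4 fell (0 and 4 without mouse 36), and the sums were 6320 to 8425 and 5969 to 7556 CPM. The riser was Gfap, with means of 57.7 and 549 CPM. Of 10 neural stem cell markers 1 rose and 2 fell, with Hes5 at means of 73.5 and 20.1 CPM. Further calls after 4-OHT were 2 of 4 tested ependymal markers lower (0 without mouse 36), the neuron marker Gad1 lower and the endothelial marker Flt1 higher, the last not without mouse 36. With the mouse as a block 2 neural stem cell markers rose and 3 fell, 1 neuron marker rose and 3 fell, and 1 ependymal marker fell. In that fit 2 astrocyte markers rose and 4 fell, 6 oligodendrocyte markers rose and 1 fell, and 2 endothelial and mural markers rose. Sums of the 7 fibroblast markers were 39.8 to 122 and 131 to 309 CPM, with Dcn and Lum at or under 3 counts throughout. Pdgfra, which is also on the oligodendrocyte list, held most of that sum, with means of 66.4 and 186 CPM. The collagen genes Col1a1, Col1a2 and Col3a1 had means of at most 2.26 CPM, and Pdgfra was the 1 called of 3 fibroblast markers tested. Between Fl/Fl and Fl/+ 4-OHT cultures, where 31.7% of all genes were called, 4 of 10 neural stem cell markers fell (40%). Below that share, 2 of 9 tested neuron markers fell (22.2%), and 1 of 8 astrocyte (12.5%) and 1 of 5 tested ependymal markers (20%) rose. Of 10 oligodendrocyte markers 0 were called. Without the 3 libraries of doubtful sex 2 neural stem cell (20%) and 1 neuron markers (11.1%) fell, against 23.2% of all genes called. Their part in the results was not tested. In such bulk samples fewer cells of a type and less RNA per cell cannot be told apart.

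Nfe2l2 (ENSMUSG00000015839, chr2:75675513-75704641, minus strand) encodes NRF2. It was at 142, 139.6, 149, 128 and 124 CPM in untreated Fl/+ cultures, at 165, 193, 168, 207 and 182 in Fl/+ 4-OHT cultures and at 161, 169.6, 159, 246 and 198 in Fl/Fl 4-OHT cultures. Every 4-OHT culture lay above every untreated one, and the 2 groups given 4-OHT overlapped. After 4-OHT its log2 fold change was 0.43 (adjusted p = 0.00956, SE 0.0872), higher in 5 of 5 mice, and this call held in all 20 alternative settings. For the loss of Trrap it was 0.04 (adjusted p = 0.82, SE 0.121). Keap1 (ENSMUSG00000003308, chr9:21229730-21239361, minus strand), the adaptor that marks NRF2 for degradation, had 89.6, 91.5, 92.3, 75.7 and 79.1 CPM in untreated Fl/+, 75.4, 90.2, 95.9, 77.9 and 75.5 in Fl/+ 4-OHT and 79.9, 87.3, 79, 79.4 and 84.4 in Fl/Fl 4-OHT cultures. All 3 groups overlapped, with log2 fold changes of -0.04 (adjusted p = 0.798, SE 0.0952) after 4-OHT and -0.00246 (adjusted p = 0.986, SE 0.0818) for the loss of Trrap.

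Hmox1 (ENSMUSG00000005413, chr8:75093621-75100589, plus strand) encodes heme oxygenase, which breaks heme into biliverdin, iron and carbon monoxide. Its levels were 85.2, 61, 84.1, 164 and 124 CPM in untreated Fl/+, 66.2, 65.3, 53.4, 84.4 and 77.6 in Fl/+ 4-OHT and 141, 147, 154, 246 and 179.6 in Fl/Fl 4-OHT cultures. The lowest Fl/Fl culture was well above the highest Fl/+ 4-OHT culture, whereas the untreated cultures spread over both ranges. For the loss of Trrap the log2 fold change was 1.34 (adjusted p = 0.000287, SE 0.164). After 4-OHT it was -0.58 (adjusted p = 0.129, SE 0.238) without and called with the mouse as a block (adjusted p = 0.0281), with 1 of 5 mice higher. Fl/Fl 4-OHT cultures also exceeded untreated ones, with 0.76 (adjusted p = 0.0385, SE 0.250) on the log2 scale, a call lost in 8 of 19 alternative settings.

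Nqo1 (ENSMUSG00000003849, chr8:107388225-107403206, minus strand) encodes a quinone reductase and is the usual readout of NRF2 activity. It was a weakly expressed member, at 6.84, 2.90, 5.77, 5.20 and 5.01 CPM in untreated Fl/+, 3.89, 2.95, 4.55, 3.26 and 3.99 in Fl/+ 4-OHT and 8.46, 10.4, 8.56, 6.89 and 9.80 in Fl/Fl 4-OHT cultures. The Fl/Fl cultures stood above all Fl/+ cultures, treated or not, and Fl/+ cultures before and after 4-OHT overlapped. Loss of Trrap gave Nqo1 a log2 fold change of 1.26 (adjusted p = 0.00038, SE 0.164), and the value was -0.46 (adjusted p = 0.202, SE 0.228) after 4-OHT. The calls of Hmox1 and Nqo1 for the loss of Trrap held in all alternative settings. Srxn1, sulfiredoxin, which repairs overoxidised peroxiredoxins, went the same way without passing the threshold at 44.4 ± 7.94 CPM in Fl/+ and 69.9 ± 36.8 in Fl/Fl 4-OHT cultures, a log2 difference of 0.67 (adjusted p = 0.0809, SE 0.271). The Fl/Fl culture of mouse 37 had 134 CPM of Srxn1 and the other 4 had 47.3 to 64.1, and without it the log2 fold change was 0.28 (adjusted p = 0.151).

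**Figure D2:**
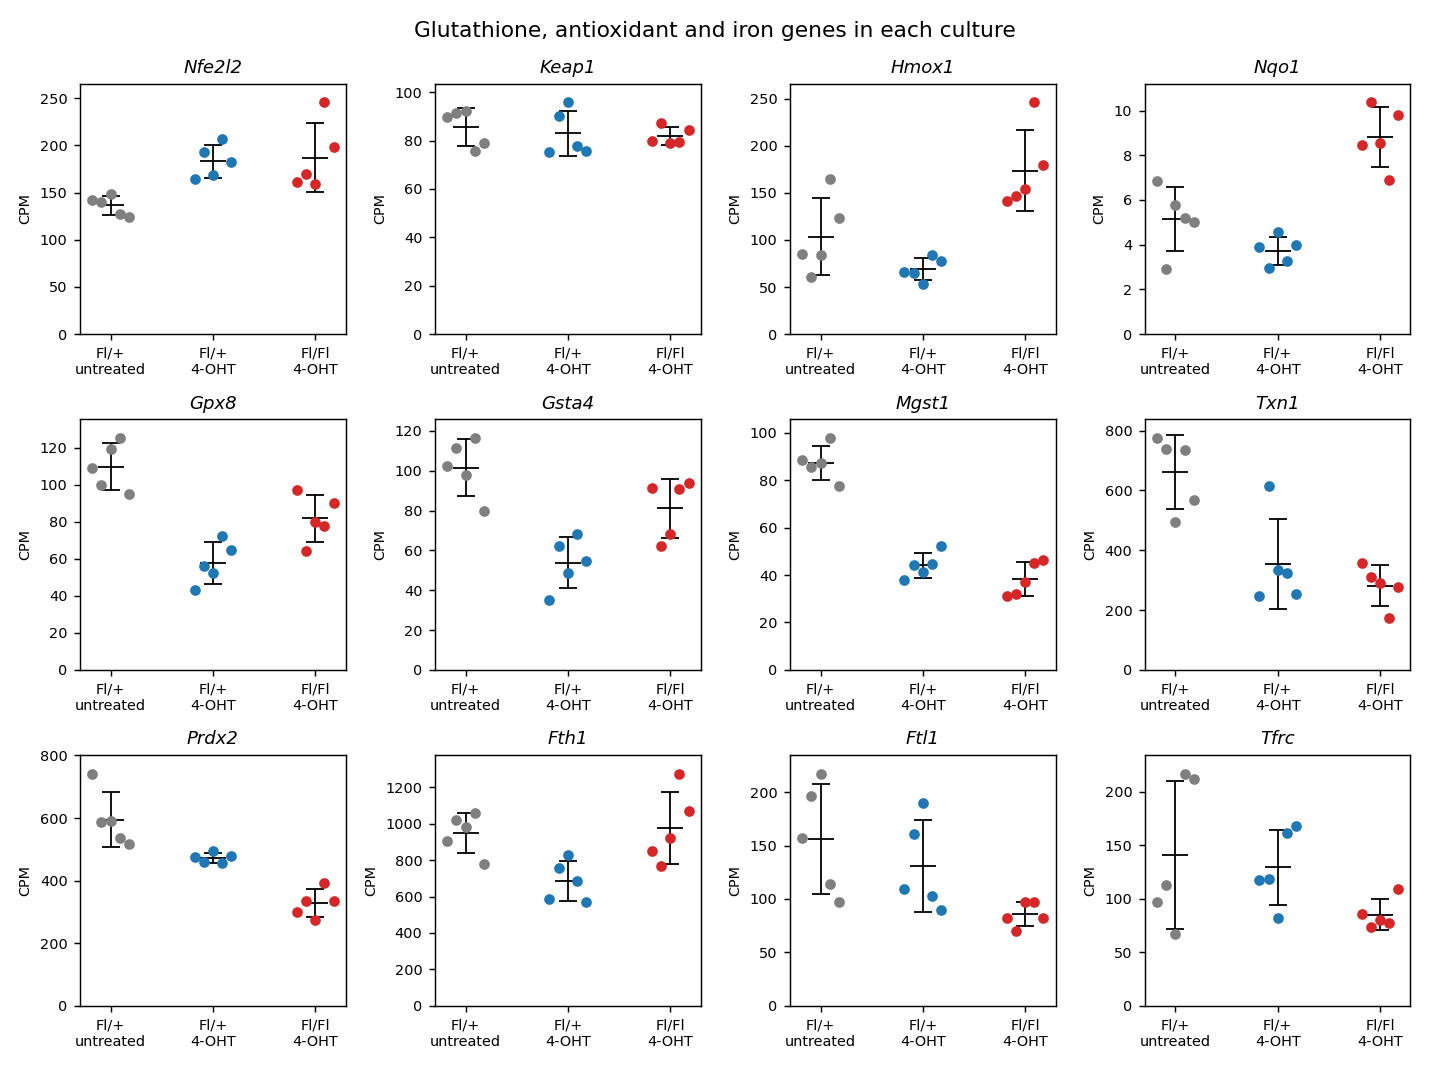
CPM (vertical axis, from 0) of 12 members in each culture, by group. Points are cultures (n = 5 per group), the horizontal mark is the mean and the bar is the SD. The red points of Hmox1 and Nqo1 lie above all blue ones, those of Prdx2 lie below them, and the blue points of Nfe2l2 lie above and those of Mgst1 and Gpx8 below all grey ones.

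Of the 4 enzymes that make and recycle glutathione 1 was called for the loss of Trrap, 25% against 31.7% of all genes, and 0 without the libraries of doubtful sex. After 4-OHT 0 were called, with or without the mouse as a block. Gclc and Gclm, the catalytic and modifier subunits of the rate-limiting ligase, had log2 fold changes of 0.10 (adjusted p = 0.374, SE 0.0805) and 0.06 (adjusted p = 0.738, SE 0.115) for the loss of Trrap and of 0.07 (adjusted p = 0.73, SE 0.120) and -0.18 (adjusted p = 0.463, SE 0.149) after 4-OHT. Gsr, which regenerates glutathione from its disulfide, stood at -0.10 (adjusted p = 0.693, SE 0.183) and -0.08 (adjusted p = 0.784, SE 0.154). Gss, the second enzyme of synthesis, was called higher in Fl/Fl 4-OHT cultures (34.5 ± 4.48 against 28.3 ± 2.90 CPM) with a log2 fold change of 0.30 (adjusted p = 0.0485, SE 0.105). That call was lost in 14 of 19 alternative settings, with adjusted p between 0.0276 and 0.121.

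Among the glutathione peroxidases, Gpx8 (ENSMUSG00000021760, chr13:113042753-113046410, minus strand) and Gpx7, both enzymes of the endoplasmic reticulum, moved in opposite directions when Trrap was lost. Gpx8 was at 109, 99.9, 119, 125 and 94.8 CPM in untreated Fl/+, 43, 56.2, 52.6, 72.2 and 64.6 in Fl/+ 4-OHT and 97.2, 64, 80.1, 77.7 and 90.3 in Fl/Fl 4-OHT cultures. The untreated and Fl/+ 4-OHT groups did not overlap, and the Fl/Fl cultures lay between their means. Its log2 fold change was -0.92 (adjusted p = 0.00197, SE 0.137) after 4-OHT and 0.52 (adjusted p = 0.0185, SE 0.145) for the loss of Trrap, and Fl/Fl 4-OHT against untreated cultures gave -0.41 (adjusted p = 0.0238, SE 0.120). All 3 comparisons share libraries in pairs, so these values are not independent. Gpx7 was at 22, 28.5, 14.1, 8.01 and 6.89 CPM in untreated Fl/+, 12.5, 26.2, 19.6, 15.7 and 15.5 in Fl/+ 4-OHT and 9.79, 13.3, 10.7, 11.8 and 9.14 in Fl/Fl 4-OHT cultures. Its untreated levels split by mouse number, with those of mice 35 and 36 the lowest, and 1 Fl/Fl culture, that of mouse 28, exceeded the lowest Fl/+ 4-OHT culture, that of mouse 19. The loss of Trrap gave -0.70 (adjusted p = 0.0173, SE 0.192). Gpx4, the lipid peroxidase, and Gpx1 and Gpx3 were not called in these 2 comparisons, with log2 fold changes from -0.35 to 0.17 for the loss of Trrap and from 0.15 to 0.59 after 4-OHT. Gpx4 shares 34.5% of its 51-base windows with other annotated genes, Gpx4-ps2 foremost, so its level is uncertain. With the mouse as a block Gpx1 and Gpx3 were called higher after 4-OHT (adjusted p = 0.0287 and 0.0295).

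Of the 9 glutathione S-transferases, which attach glutathione to electrophiles, 8 were tested. For the loss of Trrap 3 rose and 1 fell, 50% against 31.7% of all genes, and 2 rose without the libraries of doubtful sex. After 4-OHT 4 fell, 50% against 13.8% of all genes, and 3 did without mouse 36. Gsta4, an alpha-class enzyme for aldehydes from oxidised lipids, had 103, 112, 97.6, 116 and 79.8 CPM in untreated Fl/+, 35.2, 62, 48.6, 68.4 and 54.7 in Fl/+ 4-OHT and 91.4, 62.2, 68.1, 90.7 and 93.8 in Fl/Fl 4-OHT cultures. Fl/+ 4-OHT cultures lay below all untreated ones and overlapped Fl/Fl cultures. For Gsta4 the log2 fold change came to -0.92 (adjusted p = 0.00548, SE 0.168) after 4-OHT and 0.61 (adjusted p = 0.0221, SE 0.176) for the loss of Trrap, the latter lost in 3 of 19 alternative settings. Gstm7, of the mu class, had 43.3, 48.3, 36, 30.6 and 32.2 CPM in untreated Fl/+, 33.3, 55.4, 41.9, 31.1 and 28.2 in Fl/+ 4-OHT and 58.1, 68.7, 71.1, 49.1 and 52.9 in Fl/Fl 4-OHT cultures. Its Fl/Fl levels were above all untreated ones and overlapped with 1 high Fl/+ 4-OHT culture, that of mouse 24. The loss of Trrap gave 0.67 (adjusted p = 0.0175, SE 0.185), and 4-OHT -0.00288 (adjusted p = 0.994, SE 0.194). Gstp1, of the pi class, was 22.5 ± 1.92 CPM in Fl/+ and 28.8 ± 2.90 in Fl/Fl 4-OHT cultures, without overlap, a log2 fold change of 0.37 (adjusted p = 0.0133, SE 0.0964). It shares 33.5% of its 51-base windows with another annotated gene, Gstp2 foremost, and reads from these windows could not be mapped uniquely. The calls of Gstm7 and Gstp1 held in all alternative settings.

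Gstt1, of the theta class, had 219.7, 89.1, 149, 184 and 114 CPM in untreated Fl/+, 61.3, 98.8, 91.3, 108 and 59.7 in Fl/+ 4-OHT and 118, 70.1, 72.9, 56.5 and 77.5 in Fl/Fl 4-OHT cultures. The wide untreated range reached into that of the 4-OHT cultures, and 1 of 5 mice was higher after 4-OHT. On the log2 scale the change was -0.85 (adjusted p = 0.0452, SE 0.251) after 4-OHT, a call lost in 9 of 20 alternative settings, and -0.07 (adjusted p = 0.84, SE 0.218) for the loss of Trrap. Gstm1 and Gstm5, of the mu class, were not called in either comparison. Gstm1 varied from 196 to 788 CPM over the 15 cultures, and its groups overlapped. It shares 18.5% of its 51-base windows with other annotated genes.

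Mgst1 (ENSMUSG00000008540, chr6:138140316-138156755, plus strand) and Mgst3 are transferases of membranes. Mgst1 was at 88.5, 85.4, 87.1, 97.8 and 77.6 CPM in untreated Fl/+, 38, 44.3, 41.3, 44.5 and 52.4 in Fl/+ 4-OHT and 31.3, 31.9, 37.3, 45.3 and 46.3 in Fl/Fl 4-OHT cultures. All 10 cultures given 4-OHT lay below all 5 untreated ones, and both genotypes overlapped. After 4-OHT the log2 fold change was -0.98 (adjusted p = 0.000318, SE 0.0983), the smallest adjusted p among the members, and the loss of Trrap gave -0.19 (adjusted p = 0.293, SE 0.128). Mgst3 was lower in each successive group, from 21.6, 16.3, 15.9, 19.1 and 16.4 CPM in untreated Fl/+ to 11.4, 9.88, 12.3, 11.2 and 9.81 in Fl/+ 4-OHT and 6.28, 6.33, 7.02, 10.4 and 9.21 in Fl/Fl 4-OHT cultures. Untreated cultures were all above treated ones, and 1 Fl/Fl culture, that of mouse 37, reached into the Fl/+ 4-OHT range. Its log2 fold change was -0.71 (adjusted p = 0.00502, SE 0.127) after 4-OHT and -0.46 (adjusted p = 0.0474, SE 0.161) for the loss of Trrap, the latter lost in 11 of 19 alternative settings.

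Txn1 (ENSMUSG00000028367, chr4:57943373-57956411, minus strand) encodes cytosolic thioredoxin. It had 775, 739.9, 494, 736 and 567 CPM in untreated Fl/+, 247, 613, 335, 325 and 253 in Fl/+ 4-OHT and 358, 311, 290.1, 173 and 277 in Fl/Fl 4-OHT cultures. The Fl/+ 4-OHT culture of mouse 24 was the single treated culture inside the untreated range. After 4-OHT the log2 fold change was -0.90 (adjusted p = 0.0325, SE 0.244), a call lost in 8 of 20 alternative settings, and -1.18 without that culture. For the loss of Trrap it was -0.32 (adjusted p = 0.379, SE 0.261), and -0.04 without it. Txnrd1, the cytosolic reductase of thioredoxin, fell from 261 ± 33.9 CPM in Fl/+ to 190.0 ± 27.9 in Fl/Fl 4-OHT cultures, without overlap, a log2 fold change of -0.44 (adjusted p = 0.0141, SE 0.116) that was called in all alternative settings. Its mitochondrial counterpart Txnrd2 was at 18.7, 15.8, 15.8, 16.6 and 17.1 CPM in untreated Fl/+, 12.2, 12, 14.2, 12.9 and 12.4 in Fl/+ 4-OHT and 17.8, 14.7, 14, 19.7 and 14.9 in Fl/Fl 4-OHT cultures. Fl/+ 4-OHT cultures lay below all untreated cultures, and Fl/Fl cultures reached from within the Fl/+ 4-OHT range to above the untreated one. For Txnrd2 the log2 fold change came to -0.40 (adjusted p = 0.0278, SE 0.103) after 4-OHT and 0.36 (adjusted p = 0.0348, SE 0.116) for the loss of Trrap, calls lost in 9 of 20 and 8 of 19 alternative settings.

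Of the 5 peroxiredoxins, which reduce hydrogen peroxide with electrons from thioredoxin or, for Prdx6, glutathione, Prdx2 was called when Trrap was lost. Prdx2 (ENSMUSG00000005161, chr8:84969587-84974834, plus strand), a cytosolic enzyme, had 741, 589, 591, 538 and 516 CPM in untreated Fl/+, 475, 459, 493, 458 and 477 in Fl/+ 4-OHT and 299, 335, 274, 392 and 336 in Fl/Fl 4-OHT cultures. None of the 3 groups overlapped, and the Fl/+ 4-OHT cultures were the least spread. The loss of Trrap gave -0.52 (adjusted p = 0.00175, SE 0.0897), called in all alternative settings. After 4-OHT the log2 fold change was -0.33 (adjusted p = 0.0527, SE 0.102), called with the mouse as a block (adjusted p = 0.0366). It shares 11.9% of its 51-base windows with other annotated genes. Prdx1, Prdx3, Prdx5 and Prdx6 had log2 fold changes from 0.08 to 0.33 for the loss of Trrap and from -0.31 to -0.02 after 4-OHT, none called. Prdx5 shares 15.5% of its 51-base windows with another annotated gene. Prdx1 was called lower after 4-OHT with the mouse as a block (adjusted p = 0.0266).

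Superoxide dismutases turn superoxide into hydrogen peroxide, which catalase breaks down in peroxisomes. Sod3, the extracellular enzyme, was at 11.3, 6.98, 11.9, 15.9 and 8.25 CPM in untreated Fl/+, 5.21, 8.05, 5.14, 5.90 and 4.02 in Fl/+ 4-OHT and 7.80, 6.36, 8.59, 11.1 and 9.66 in Fl/Fl 4-OHT cultures. The groups overlapped in both comparisons, and 1 of 5 mice was higher after 4-OHT. On the log2 scale the change was -0.94 (adjusted p = 0.0299, SE 0.249) after 4-OHT and 0.63 (adjusted p = 0.036, SE 0.205) for the loss of Trrap. These calls were lost in 8 of 20 and 10 of 19 alternative settings. Cat had 176, 243, 276, 230.2 and 175 CPM in untreated Fl/+, 142, 166, 172, 147 and 138 in Fl/+ 4-OHT and 144, 133, 137, 129 and 115 in Fl/Fl 4-OHT cultures. All treated cultures were below the untreated ones, and both genotypes overlapped. Its log2 fold change was -0.52 (adjusted p = 0.0261, SE 0.134) after 4-OHT, a call lost in 6 of 20 alternative settings, and -0.20 (adjusted p = 0.102, SE 0.0885) for the loss of Trrap. The cytosolic Sod1 and mitochondrial Sod2 were not called in either comparison. Sod2 was lower in Fl/Fl 4-OHT than in untreated Fl/+ cultures, with -0.39 (adjusted p = 0.00826, SE 0.0911) on the log2 scale. It shares 20.8% of its 51-base windows with other annotated genes.

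Iron promotes the formation of radicals from peroxide, and ferritin stores it. Fth1 (ENSMUSG00000024661, chr19:9980598-9985098, plus strand), the ferritin heavy chain, had 905, 1021, 979.6, 1061 and 779.6 CPM in untreated Fl/+, 587, 759, 828, 683 and 568 in Fl/+ 4-OHT and 852, 767, 923, 1274 and 1068 in Fl/Fl 4-OHT cultures. Levels were lowest in Fl/+ 4-OHT cultures, with overlap to either side. For Fth1 the log2 fold change came to -0.47 (adjusted p = 0.0333, SE 0.128) after 4-OHT and 0.53 (adjusted p = 0.0219, SE 0.151) for the loss of Trrap, while Fl/Fl 4-OHT against untreated cultures gave 0.06 (adjusted p = 0.802, SE 0.142). Ftl1, the ferritin light chain, had 157, 197, 217, 114 and 97.6 CPM in untreated Fl/+, 109, 161, 190.2, 103 and 89.7 in Fl/+ 4-OHT and 81.7, 70.3, 96.8, 96.8 and 82.6 in Fl/Fl 4-OHT cultures. Its Fl/+ levels varied by mouse in the same order before and after 4-OHT, and Fl/Fl cultures were at the low end. The loss of Trrap gave -0.59 (adjusted p = 0.0408, SE 0.199). After 4-OHT the log2 fold change of Ftl1 was -0.26 (adjusted p = 0.548, SE 0.259), called with the mouse as a block (adjusted p = 0.0461), with 0 of 5 mice higher. Ftl1 shares 58.1% of its 51-base windows with 16 other annotated genes, so its level is uncertain. Tfrc, the transferrin receptor that brings iron in, had 96.6, 113, 66.6, 217 and 212 CPM in untreated Fl/+, 118, 118, 81.7, 161 and 167 in Fl/+ 4-OHT and 85.5, 73.4, 80.4, 77.2 and 109 in Fl/Fl 4-OHT cultures. Mice 35 and 36 were above the other Fl/+ mice in both states, and all 5 Fl/Fl cultures were below 4 of the 5 Fl/+ 4-OHT cultures. For the loss of Trrap the log2 fold change was -0.59 (adjusted p = 0.0295, SE 0.181), and after 4-OHT -0.12 (adjusted p = 0.835, SE 0.320). The calls of Fth1, Ftl1 and Tfrc for the loss of Trrap were lost in 5, 6 and 7 of 19 alternative settings, and that of Fth1 after 4-OHT in 7 of 20.

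**Figure D3:**
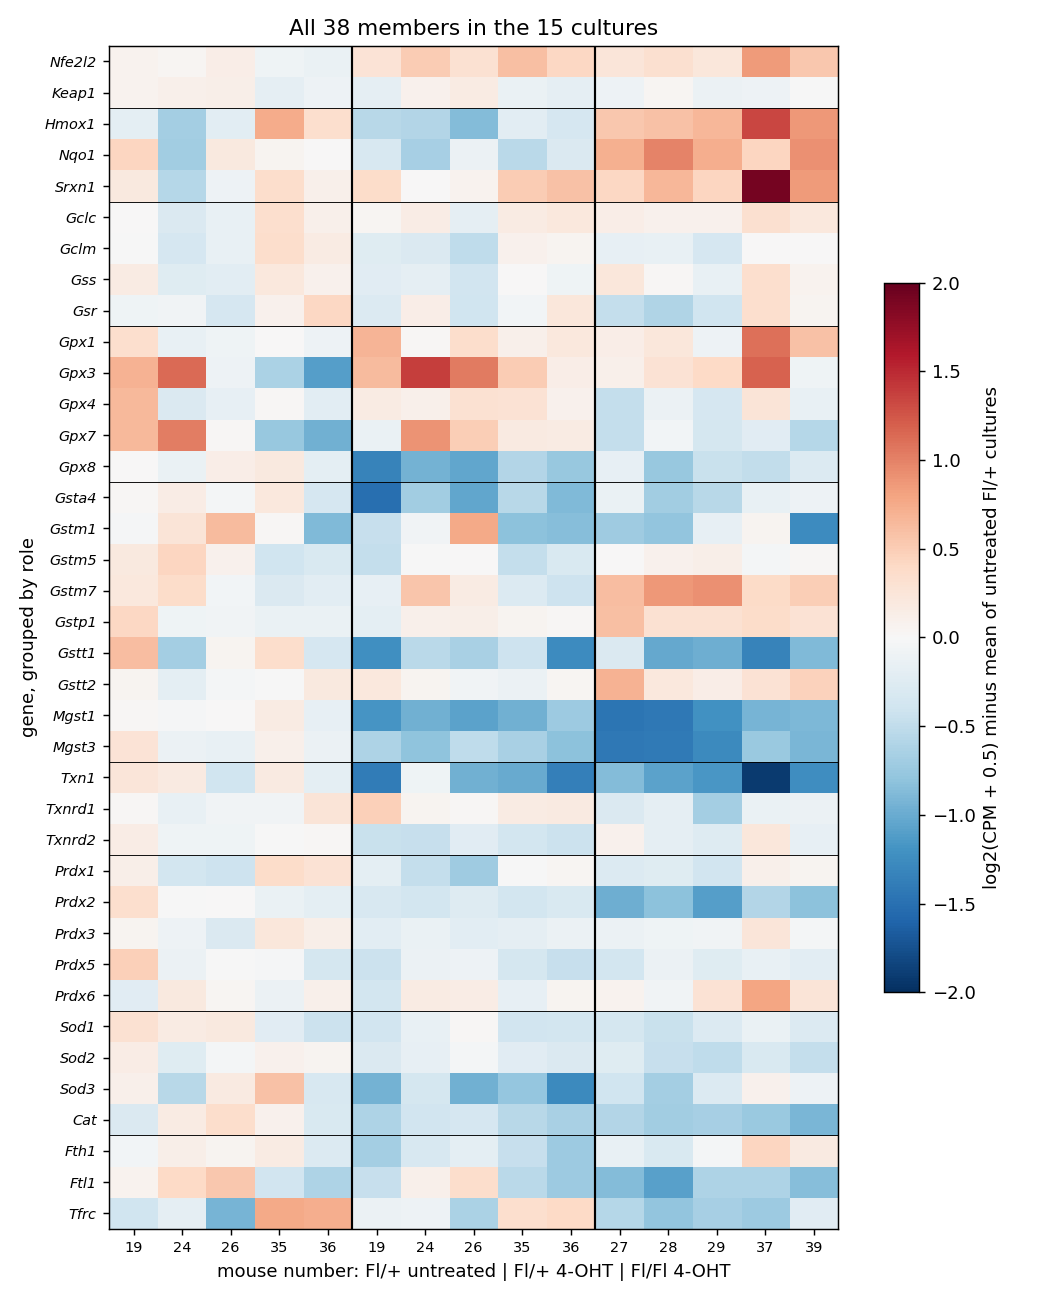
log2(CPM + 0.5) of the 38 members (rows, grouped by role) in each of the 15 cultures (columns, by mouse number), minus the mean of the 5 untreated Fl/+ cultures. Red is higher and blue lower than untreated. Mgst1, Mgst3 and Txn1 are blue in nearly all treated cultures, and Hmox1, Nqo1 and Gstm7 are red in all Fl/Fl cultures.

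The mice fall into 2 series of numbers, 19 to 29 and 35 to 39, of which the labels give no further meaning. All 16 members called for the loss of Trrap, and all 11 called after 4-OHT, had the same sign of mean log2 difference in both series. For the loss of Trrap the widest gaps among the called members between mice 19 to 29 and mice 35 to 39 were those of Ftl1 (-0.86 and -0.10), Sod3 (0.30 and 1.02), Fth1 (0.24 and 0.90) and Mgst3 (-0.73 and -0.09), and they were not tested. Hmox1 stood at 1.26 and 1.37 and Nqo1 at 1.18 and 1.09.

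Of the 9 members with the antioxidant response element letters, 1 rose (Gstm7) and 1 fell (Txnrd1) for the loss of Trrap, 22.2% against 31.7% of all genes. After 4-OHT 1 rose (Nfe2l2) and 1 fell (Mgst1), 22.2% against 13.8%. Both counts were the same without the libraries of doubtful sex. Srxn1, Gclm, Gstm5, Prdx1 and Sod1 were not called in these 2 comparisons. With the mouse as a block, Srxn1 was called higher (adjusted p = 0.0366, higher in 5 of 5 mice) and Prdx1 lower (adjusted p = 0.0266, higher in 0 of 5 mice) after 4-OHT. Among the 28 members with a GC box, 6 rose (Nqo1, Gss, Gstm7, Gstp1, Txnrd2 and Fth1) and 6 fell (Gpx7, Mgst3, Txnrd1, Prdx2, Ftl1 and Tfrc) for the loss of Trrap, 42.9% against 31.7% of all genes. Without the libraries of doubtful sex 3 rose and 5 fell, 28.6% against 23.2% of all genes in that setting, and Gss, Txnrd2, Fth1 and Mgst3 lost their call. After 4-OHT 1 of the 28 rose and 6 fell, 25% against 13.8% of all genes, and 1 and 4 did without mouse 36, 17.9% against 10.8%. With the mouse as a block 4 rose and 9 fell, 46.4% against 25.7%.

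Per kilobase of exon in untreated Fl/+ cultures, Txn1 was the most abundant member with 630.2 ± 118 CPM per kb (mean ± SD, n = 5), followed by Gstm1 with 335 ± 116, Fth1 with 274 ± 32 and Prdx2 with 195 ± 28.9. NRF2 marker enzymes were lower, with 59.2 ± 23.2 for Hmox1, 12.8 ± 2.92 for Srxn1 and 3.31 ± 0.931 for Nqo1. Neighbours in this order overlapped in their ranges over cultures except Gss over Txnrd2, and Sod3 over Gstt2, the last at 0.0474 ± 0.0166. In Fl/Fl 4-OHT cultures Txn1 stood at 268 ± 64.8 and Fth1 at 282 ± 57.4 CPM per kb.

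**Figure D4:**
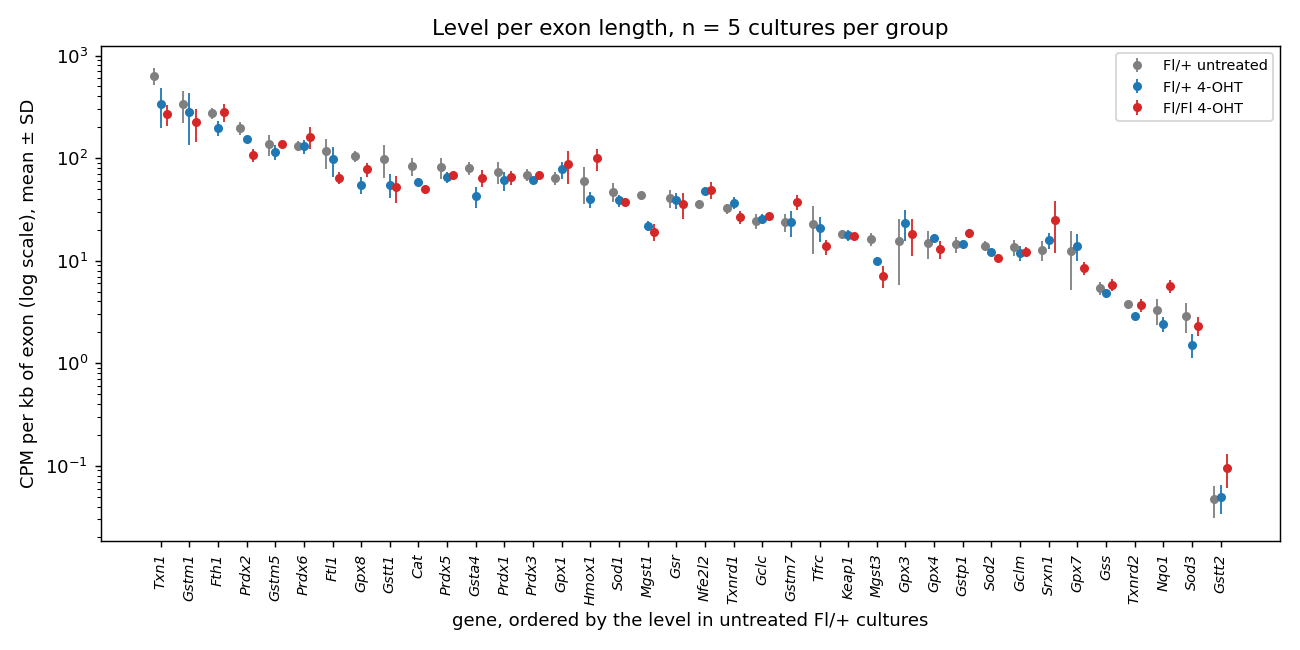
CPM per kilobase of exon (vertical log axis) of the 38 members, ordered by their level in untreated Fl/+ cultures. Points are means and bars SDs of 5 cultures per group. Txn1 is highest in untreated cultures, at 630.2 CPM per kb, and Gstt2 lowest.

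In the counts of further lists below, the background is 31.7% of all genes called for the loss of Trrap and 13.8% after 4-OHT (25.7% with the mouse as a block). Without the libraries of doubtful sex it is 23.2% and 10.8%. Among 14 partners and regulators of NRF2 outside the set, 1 rose and 6 fell for the loss of Trrap (50% called), and 1 and 5 without the libraries of doubtful sex. Bach1, the repressor that competes with NRF2 at the antioxidant response element and holds down Hmox1, fell from 54.1 ± 4.60 to 28.8 ± 3.38 CPM, a log2 fold change of -0.90 (adjusted p = 0.000123, SE 0.0935). Maff, a small MAF partner, changed by -0.59 (adjusted p = 0.00941, SE 0.143), and Gsk3b, a kinase that marks NRF2 for degradation, by -0.54 (adjusted p = 0.000108, SE 0.0539). After 4-OHT 2 rose and 1 fell (21.4%), led by Maff (log2 fold change 0.72, adjusted p = 0.0149, SE 0.163), and 5 were called with the block. Of 19 tested NRF2 targets outside the set, 3 rose and 3 fell for the loss of Trrap, a share of 31.6% that is near the background, and 1 and 2 did without the libraries of doubtful sex. Ephx1, the microsomal epoxide hydrolase, rose (log2 fold change 0.87, adjusted p = 0.00303, SE 0.165), and the exporter Abcc1 (log2 fold change -0.86, adjusted p = 0.00183, SE 0.150) and the transketolase Tkt (log2 fold change -0.57, adjusted p = 0.00646, SE 0.127) fell. After 4-OHT 2 of these rose and 3 fell (26.3%), 2 and 4 did without mouse 36, and 8 were called with the block, with Osgin1 at 1.55 (adjusted p = 0.00713, SE 0.300) and Abcc1 at 0.86 (adjusted p = 0.0014, SE 0.118).

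For the supply and turnover of glutathione, 4 of 17 tested genes were called for the loss of Trrap, a share of 23.5% that is below the background. All 4 were higher, 2 without the libraries of doubtful sex, led by the mitochondrial transferase Gstk1 (log2 fold change 0.79, adjusted p = 0.000553, SE 0.110) and Gstz1 (log2 fold change 0.64, adjusted p = 0.000329, SE 0.0805). In the same list 3 of 18 fell after 4-OHT and none rose (16.7%). With the mouse as a block 2 rose and 6 fell, and without mouse 36 2 fell. Slc7a11, the cystine transporter that feeds glutathione synthesis, fell from 35.6 ± 11.2 to 11.6 ± 5.21 CPM, a log2 fold change of -1.62 (adjusted p = 0.00923, SE 0.329), and its partner Slc3a2 fell too (log2 fold change -0.55, adjusted p = 0.0147, SE 0.124). Of 20 further thioredoxin and glutaredoxin genes 7 rose and 2 fell for the loss of Trrap (45%), 2 and 2 without the libraries of doubtful sex, among them Msrb3 (log2 fold change 0.77, adjusted p = 0.00875, SE 0.183) and Msrb2 (log2 fold change 0.74, adjusted p = 0.00213, SE 0.133), reductases of oxidised methionine, and Prdx4 (log2 fold change -0.73, adjusted p = 0.001, SE 0.115), the peroxiredoxin of the endoplasmic reticulum. After 4-OHT 1 rose and 4 fell (25%), and 1 and 3 without mouse 36, with Msrb2 at -0.79 (adjusted p = 0.00442, SE 0.139).

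In iron and heme handling outside the set, 4 of 19 tested genes rose and 1 fell for the loss of Trrap, a share of 26.3% that is below the background, and 3 and 1 did without the libraries of doubtful sex. Pcbp1, a chaperone that delivers iron to ferritin, fell (log2 fold change -0.58, adjusted p = 0.000604, SE 0.0821), and Blvra, which converts the biliverdin made by HMOX1, rose (log2 fold change 0.49, adjusted p = 0.00267, SE 0.0913), as did Fech, which inserts iron into heme (log2 fold change 0.45, adjusted p = 0.000326, SE 0.0570). After 4-OHT 2 rose and 1 fell (15.8%, near the background), and 2 and 0 without mouse 36, with the mitochondrial iron importer Slc25a37 at 0.71 (adjusted p = 0.00603, SE 0.132). Of 6 tested further transferases and peroxidases 3 rose for the loss of Trrap, 0 without the libraries of doubtful sex, and after 4-OHT 0 were called without and 1 with the block. Of 9 genes of selenoprotein synthesis, on which some glutathione peroxidases and the thioredoxin reductases depend, 2 rose and 1 fell for the loss of Trrap (33.3%, near the background), and 1 and 1 without the libraries of doubtful sex. The fall was that of Lrp8, a selenoprotein P receptor (log2 fold change -0.88, adjusted p = 0.000123, SE 0.0913), and after 4-OHT 0 were called in either fit. Among 7 tested sources of superoxide and hydrogen peroxide 2 rose for the loss of Trrap (28.6%), Aox1 (log2 fold change 1.00, adjusted p = 0.0234, SE 0.292) and Ero1lb (log2 fold change 0.91, adjusted p = 0.00926, SE 0.218), of which Aox1 lost its call without the libraries of doubtful sex. After 4-OHT Ero1l, the oxidase that makes peroxide while forming disulfide bonds, rose (log2 fold change 2.36, adjusted p = 0.00161, SE 0.336) and Maoa fell (log2 fold change -0.34, adjusted p = 0.0249, SE 0.0860).

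Fl/Fl 4-OHT against untreated Fl/+ cultures, which joins both steps and shares libraries with each comparison above, called 15 of 37 members, 6 higher and 9 lower, 40.5% against 30.7% of all 15032 genes (15.7% higher, 15.1% lower). The groups did not overlap for 10, against 23.1% of all genes. Hmox1, Nqo1, Srxn1, Nfe2l2, Gstm7 and Gstp1 were higher, and Txn1 (log2 fold change -1.22, adjusted p = 0.00096, SE 0.189), Mgst3 (log2 fold change -1.17, adjusted p = 0.00079, SE 0.175) and Mgst1 (log2 fold change -1.17, adjusted p = 0.000131, SE 0.124) fell furthest. Without the 3 libraries of doubtful sex 12 members were called, 1 higher and 11 lower, 32.4% against 26.6% of all genes, of which 2076 were higher and 1935 lower. Gstm7 was the 1 that stayed higher, and Gsta4 and Sod1 were added among the lower. Markers of other cell types moved in this comparison too. Of the neuron markers 6 of 9 tested fell, with sums of 874 to 1149 CPM in untreated and 617 to 833 CPM in Fl/Fl 4-OHT cultures. Of 10 oligodendrocyte markers 6 rose and 1 fell, with sums of 3465 to 4514 and 3590 to 5407 CPM. For the ependymal list 3 of 5 tested rose and 1 fell, with sums of 30.5 to 69.9 and 79.5 to 108 CPM and Tmem212 at or under 3 counts throughout. Of 8 astrocyte markers 1 rose and 4 fell, and of 10 neural stem cell markers 4 fell. Without the libraries of doubtful sex the astrocyte falls all lost their call, and 5 neuron, 3 neural stem cell and 1 oligodendrocyte markers fell while 6 oligodendrocyte and 3 ependymal markers rose. Their part in the results was not tested here either.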

How the data were processed

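The authors sequenced strand-specific mRNA libraries as single-end reads, converted them with bcl2fastq 1.8.4, mapped them to GRCm38 with STAR 2.5.4b and assigned unique reads to Ensembl genes with featureCounts 1.5.0 with strand. What they deposited is 1 table of unnormalised counts. Reads shared between genes were left out by the authors, so the share of 51-base windows found in another annotated transcript was computed for each member. Totals were 25720034 to 32187097 counts, and 3 counts, taken as the floor, equal 0.0933 to 0.119 CPM. PCR copies count as reads, so floors cover counting error only.

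Of 53801 gene IDs, 53706 matched GENCODE M21. Each comparison was fitted on its own 10 libraries with edgeR 4.0.16 in R 4.3.3 (filterByExpr with a minimum count of 10, TMM, quasi-likelihood F test without covariates, Benjamini-Hochberg adjustment over all genes tested, called under 0.05). CPM values use TMM-scaled totals of all 15 libraries. The 15 cultures came from 10 mice. Over 14821 genes the deviations from the group means correlated with r of 0.153 to 0.634 between the 2 Fl/+ cultures of 1 mouse and of -0.559 to 0.350 between mice, and the mouse pairs them by design. The fit with this block is an alternative. The others were DESeq2 1.42.0, its size factors, library size alone, no filter, 10 or more counts in all libraries of a comparison, 1 dispersion over all 15 libraries, labelled sex as a covariate and each library left out. A covariate for the series of mouse numbers and leaving out the 3 libraries of doubtful sex were added after the data were seen.

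The members and lists were chosen with earlier results of these data known. All members may be named. Values per culture are given for Nfe2l2, Keap1 and at most the 12 called members with the largest absolute log2 fold change in each of the first 2 comparisons, and of each further list at most 3 called genes. No dose or length of 4-OHT exposure is stated because the labels and the methods disagree on both.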

Additional observations from a re-analysis of the deposited data

Results flagged for a closer look

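Of 114 combinations of member and group, 8 held a culture that stood apart from the other 4 by a gap above Dixon's 95% critical value, and chance flags about 1 in 20. The Fl/Fl culture of mouse 37 was high for 3 genes. It had 134 CPM of Srxn1 (others 47.3 to 64.1), 55.0 of Gpx3 (others 22.6 to 31.8) and 119.5 of Prdx3 (others 93.5 to 99.0). The untreated culture of mouse 19 was high for 3 others, with 116 CPM of Gpx1 (others 82.1 to 91.7), 39.2 of Gpx4 (others 20.3 to 25.3) and 29.5 of Gstp1 (others up to 21). The Fl/Fl culture of mouse 27 had 33.9 CPM of Gstp1 (others 26.9 to 28.6), and the Fl/+ 4-OHT culture of mouse 24 had 613 CPM of Txn1 (others 247 to 335). Sod2 was flagged when every member was checked for labelled sexes that differed in the sign of their response to 4-OHT. Its mean log2 difference was 0.04 in the cultures labelled female and -0.36 in those labelled male, a difference of 0.41 that was not tested. The female value, from mice 24 and 26 alone, was close to no change. The male label of mouse 36 is in doubt through its Xist counts, while its Y-linked counts went with the label.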

How the results depend on the processing

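No called member changed sign in any alternative. A call held in every alternative for 6 of 16 members for the loss of Trrap (Gstm7, Gstp1, Hmox1, Nqo1, Prdx2 and Txnrd1), for 5 of 11 after 4-OHT (Gpx8, Gsta4, Mgst1, Mgst3 and Nfe2l2) and for 9 of 15 between Fl/Fl 4-OHT and untreated cultures. The cause of the losses was not tested. Members called after the loss of Trrap numbered 9 without the 3 libraries of doubtful sex and 10 to 13 with 1 library left out, the lowest without the Fl/Fl culture of mouse 27 or the Fl/+ 4-OHT culture of mouse 35 or 36. After 4-OHT they numbered 18 with the mouse as a replicate block, 7 without the libraries of doubtful sex and 5 to 12 with 1 library left out. Over all genes 3809 were called with the block, 3170 with a covariate for the series of mouse numbers and 1271 to 2522 with 1 library left out. The block ended no call of a member. The count filter kept Gstt2, at 3 to 20 counts per library, out of the main fit. With DESeq2 and with no filter 38 members were tested.

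Other log2 fold changes that turned sign belonged to uncalled members. With 1 library left out they spanned, for the loss of Trrap, -0.0882 to 0.0889 for Nfe2l2, -0.0519 to 0.0438 for Keap1, -0.0291 to 0.11 for Gclm, -0.0592 to 0.28 for Gpx1, -0.52 to 0.0232 for Gstm1, -0.26 to 0.0206 for Gstt1 and -0.0895 to 0.0313 for Sod1. Single values for the loss of Trrap were 0.0333 for Keap1 with library size alone, 0.00501 for Keap1 with sex as a covariate and 0.000578 for Keap1 with the series as a covariate. With 1 library left out they spanned, after 4-OHT, -0.16 to 0.0387 for Gsr, -0.0192 to 0.49 for Gpx7, -0.17 to 0.0986 for Gstm7, -0.0244 to 0.13 for Gstp1, -0.0761 to 0.0661 for Prdx6 and -0.30 to 0.0855 for Tfrc. Single values after 4-OHT were 0.00773 for Keap1 with library size alone, 0.0449 for Gstm7 with library size alone, 0.0118 for Gstm7 with 10 or more counts throughout, 0.0302 for Gstm7 without the libraries of doubtful sex, -0.0274 for Gstp1 without the libraries of doubtful sex and 0.0302 for Prdx6 with library size alone. With 1 library left out they spanned, between Fl/Fl 4-OHT and untreated cultures, -0.0313 to 0.59 for Gpx3, -0.30 to 0.0230 for Gpx4, -0.0741 to 0.14 for Gstm5, -0.12 to 0.0114 for Txnrd2, -0.0735 to 0.0492 for Prdx3 and -0.0591 to 0.13 for Fth1. Single values between Fl/Fl 4-OHT and untreated cultures were 0.0410 for Keap1 with library size alone, -0.0464 for Gstm5 without the libraries of doubtful sex, 0.0514 for Txnrd2 with library size alone, 7.63e-05 for Txnrd2 without the libraries of doubtful sex, 0.0854 for Prdx3 with library size alone, 0.00620 for Prdx3 with no filter, 0.0109 for Prdx3 with 10 or more counts throughout, 0.000233 for Prdx3 with sex as a covariate, 0.0314 for Prdx3 without the libraries of doubtful sex and -0.0403 for Fth1 without the libraries of doubtful sex.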
